A study of Mus musculus with 9 samples.

Results

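One library of transformed mouse bone marrow cells, the one labelled Runx2ko replicate 1, held 135 genes of 21159 in the count table at a level at least 4 times that of any other library. The genes were chosen from the authors' normalized counts by 2 thresholds. The value in Runx2ko replicate 1 had to be at least 100, and it had to be at least 4 times the highest value of the 8 other libraries. In all, 139 genes met both thresholds. Of these, 4 were left out because they stood on a list of 15 mast cell, basophil, megakaryocyte and erythroid genes, and none was Y-linked. The values that chose the genes are given below as a description, with no test, and the library has no second sample of its kind.

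The study set RNA of bone marrow cells transformed by the leukaemia fusion protein KMT2A-MLLT1 (also called MLL-ENL) against RNA of earlier cultures. All 9 libraries came from lineage-depleted bone marrow of Runx2fl/fl mice with a tamoxifen-inducible Cre (CreERT2tg), in which the gene for the transcription factor Runx2 can be deleted. Marrow cells received a retrovirus carrying KMT2A-MLLT1 and eGFP and were kept for 24 hours with IL-3 and IL-6 at 10 ng/ml each and stem cell factor at 50 ng/ml. They were then plated in methylcellulose, a semi-solid medium, and replated every 7 days over 3 rounds. The group Runx2ko (3 libraries) is transformed cells in suspension culture given 4-OHT, the active form of tamoxifen, at 400 nM for 24 hours. The group Runx2wt (3 libraries) is transformed cells given ethanol, so 4-OHT and active Cre go with Runx2ko in every library. The group BM progenitor (3 libraries) is RNA from before the first replating, and the labels do not say whether those cells all carried the fusion. The labels call the samples independent biological replicates. T-ALL cells are named in the extraction protocol alone. RNA was measured with QuantSeq, which counts tags at the 3' ends of transcripts, so that a count does not grow with transcript length.

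Mast cells and basophils are granulocytes of allergy and parasite defence. They bind IgE through the receptor FcεRI and store histamine, heparin-like proteoglycans and proteases in granules that empty when the receptor is cross-linked. Both arise from marrow progenitors that depend on the transcription factor Gata2, which they share with the megakaryocyte and erythroid lineages, and mast cells grow in culture with IL-3 and stem cell factor.

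Library totals ran from 3118594 to 5348177 counts, the lowest being Runx2ko replicate 1, and 14377 to 15634 genes had at least 1 count. Mitochondrial genes took 1.67% to 2.15% of the counts. Runx2 had a normalized count of 88.9 in Runx2ko replicate 1, against 511 and 583 in Runx2ko replicates 2 and 3, 675, 770.1 and 561 in Runx2wt and 229.5, 201 and 254 in BM progenitor. It was lowest in Runx2ko replicate 1, while the other Runx2ko libraries lay at or just below the Runx2wt libraries. The floxed exon is not named in the labels, so 3' tags do not check the deletion. Hoxa9, a homeobox gene known as a target of KMT2A fusions, stood at 714 in Runx2ko replicate 1, against 1449 and 1549.7 in Runx2ko replicates 2 and 3, 1961, 2226 and 1863 in Runx2wt and 139, 127 and 206 in BM progenitor. All 6 transformed libraries were above all 3 BM progenitor libraries for Hoxa9 and the same held for Meis1, which encodes its cofactor, with 1126 in Runx2ko replicate 1, 593 to 1118 in the 5 transformed others and 90.8 to 115 in BM progenitor.

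No other library had a comparable number of such genes. With each library in turn taken as the high one, the same 2 thresholds were met by 139 genes in Runx2ko replicate 1, by 4 and 1 in Runx2ko replicates 2 and 3, by 1, 3 and 1 in the Runx2wt libraries and by none in any BM progenitor library. The share of all genes that met them in Runx2ko replicate 1 was 0.657%. The mirrored rule, at least 100 in every other library and at least 4 times lower, was met by 84 genes in Runx2ko replicate 1, by 1 in Runx2wt replicate 1 and by none in the 7 remaining libraries.

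**Figure D1:**
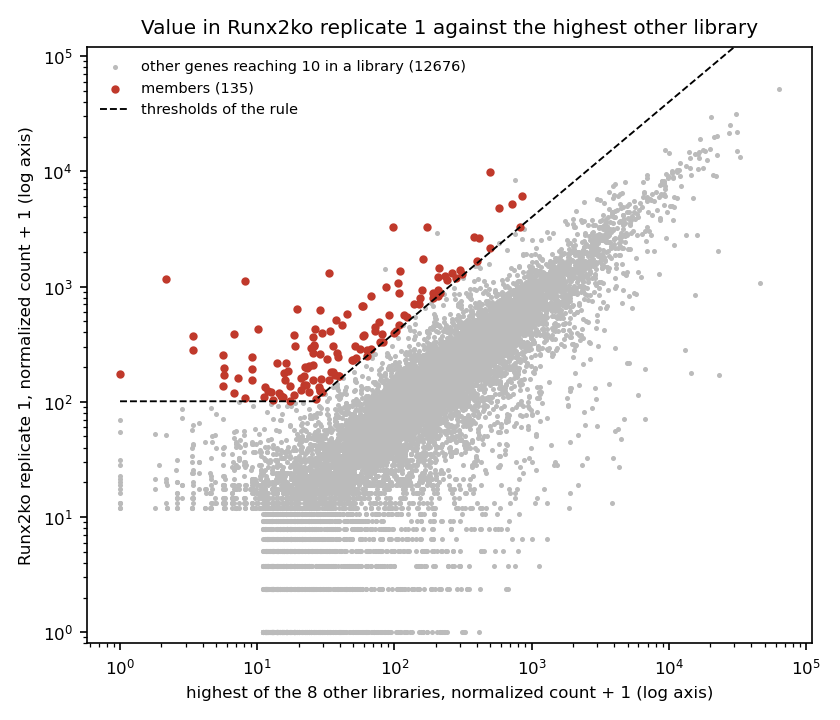
Each point is a gene, with the highest normalized count of the 8 other libraries on the horizontal axis and the normalized count in Runx2ko replicate 1 on the vertical axis, both plus 1 on log axes. The 135 members, in red, lie above the dashed thresholds of 100 and 4-fold, and their values ran from 101.3 to 9810.

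The members' values in Runx2ko replicate 1 had a median of 306, and 44 of them were under 200. The smallest count behind a member was 74, with an exact Poisson 95% interval of 58.1 to 92.9 that covers counting error only. The median ratio to the highest other library was 7.38. For 52 members the ratio was at least 10 or the other libraries were at 0, and for 36 it was under 5. The choice was tight at its edge. Just inside lay Csf2rb2 at 4.00 times, Nrip1 at 4.01 times and Adck1 at 4.03 times the highest other library. Just outside lay Tsc22d1 at 3.97 times and Ly6g at 3.94 times. The members' summed level made up 2.32% of all normalized counts in Runx2ko replicate 1, 0.0927% and 0.102% in Runx2ko replicates 2 and 3, 0.0930% to 0.103% in Runx2wt and 0.241% to 0.266% in BM progenitor. By annotation 129 members are protein coding. A level in bulk RNA cannot tell a larger share of cells of one type from more RNA of that gene per cell.

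Among the proteins of secretory granules, Gzmb had the highest value of any member. It encodes granzyme B, a serine protease of cytotoxic lymphocyte granules that mouse mast cells also make. Gzmb (ENSMUSG00000015437, chromosome 14, 56258838 to 56262260, minus strand) had a normalized count of 9810.3 in Runx2ko replicate 1, against 5.66 and 68.1 in Runx2ko replicates 2 and 3, 3.19, 8.36 and 28.6 in Runx2wt and 347, 497 and 479.9 in BM progenitor. The 3 BM progenitor libraries came next and did not overlap with the other 5 transformed libraries, which were all under 70. Slc18a2 (ENSMUSG00000025094, chromosome 19, 59260896 to 59296012, plus strand) encodes the vesicular transporter VMAT2, which loads monoamines such as histamine into granules. Its values were 3255 in Runx2ko replicate 1, against 33.2 and 24.7 in Runx2ko replicates 2 and 3, 22.3, 16.7 and 19.1 in Runx2wt and 157, 141 and 171 in BM progenitor, in the same order of groups. Ctla2a, an inhibitor of cathepsin L-type proteases, had 1443 in Runx2ko replicate 1, against 12.1 and 90.4 in Runx2ko replicates 2 and 3, 7.97, 4.78 and 39.3 in Runx2wt and 137, 188 and 212 in BM progenitor. Here too BM progenitor lay above the other 5 transformed libraries.

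Digestive zymogens also appeared among the members, at levels near 0 elsewhere. Pga5, which encodes a pepsinogen, had 1171 in Runx2ko replicate 1, from 856 counts, and 2 counts in the 8 other libraries together. Its level was 4826 times the pooled level of those 8, with an exact 95% interval of 1332 to 39913 for counting error. Try5, a trypsinogen, had 196 in Runx2ko replicate 1 and 0 to 4.77 in the 8 others. Trypsinogen genes are near-identical copies, and reads could be shared among them.

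**Figure D2:**
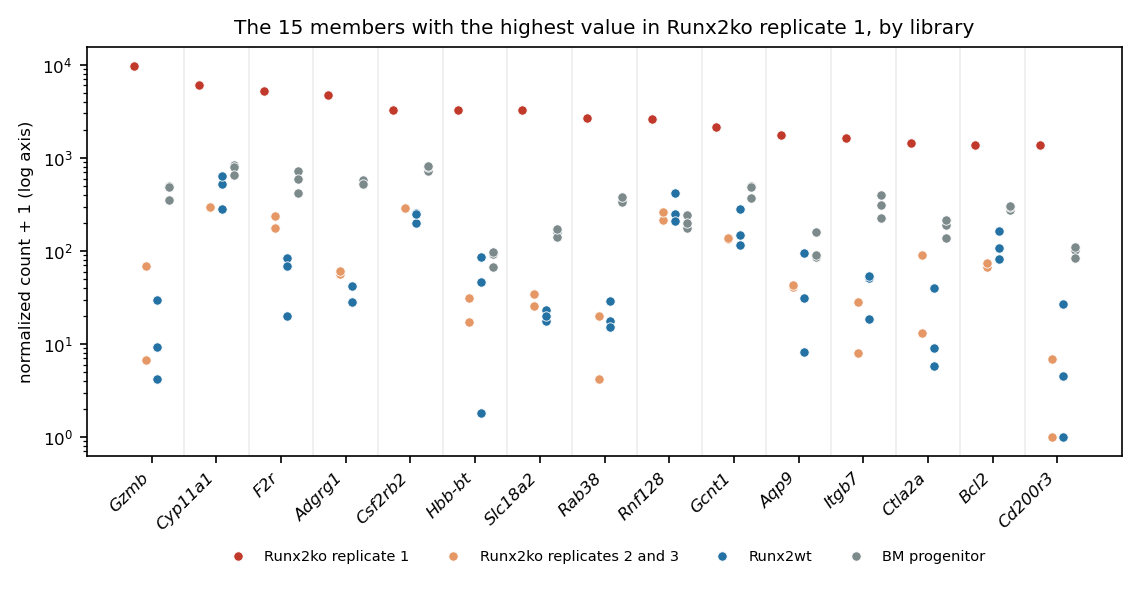
Normalized count plus 1 (log axis) in each of the 9 libraries for the 15 members with the highest value in Runx2ko replicate 1, which run from Gzmb at 9810 to Cd200r3 at 1357. Each point is a library, coloured by group, and Runx2ko replicate 1 lies above every other point for every gene.

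Because Slc18a2 and Gzmb led the granule genes and shared the same order of groups, their start regions are shown, 250 bases before to 50 after the annotated start, from RefSeq on GRCm38.p6. The Slc18a2 window is chr19:59260628-59260927 on the plus strand and the Gzmb window is chr14:56262285-56262584 on the minus strand, each printed 5′ to 3′ along its gene. Capitals mark GATA motifs, searched on both strands as the letters GATA with A or T just before and A or G just after.
Slc18a2: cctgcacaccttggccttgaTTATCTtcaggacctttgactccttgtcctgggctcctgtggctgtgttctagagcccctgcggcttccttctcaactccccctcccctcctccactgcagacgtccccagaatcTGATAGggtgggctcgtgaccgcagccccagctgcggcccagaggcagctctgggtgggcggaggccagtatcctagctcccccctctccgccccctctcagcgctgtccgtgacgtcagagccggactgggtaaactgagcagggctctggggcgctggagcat
Gzmb: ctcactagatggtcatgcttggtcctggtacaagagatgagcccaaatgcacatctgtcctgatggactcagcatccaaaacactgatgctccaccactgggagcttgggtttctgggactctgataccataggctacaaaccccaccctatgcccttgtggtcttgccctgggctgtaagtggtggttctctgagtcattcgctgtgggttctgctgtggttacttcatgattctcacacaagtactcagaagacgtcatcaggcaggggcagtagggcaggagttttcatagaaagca
The Slc18a2 window held 2 such motifs and the Gzmb window none, which says only that these letters are not in that window. Windows were found for 99 members, 130 windows in all. A GATA motif stood in 27.7% of them, against 29.8% of all 32851 windows of the same length. The RUNX motif TGTGGT, on either strand, stood in 16.9% of the members' windows and 16.8% of all, and the E-box letters CATGTG or CACGTG, which MITF is known to bind, in 20% and 20.4%, again on either strand. These shares were close to those of all promoters.

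Enzymes that act on lipids and steroids included the member with the second highest value. Cyp11a1 (chromosome 9, 58006411 to 58027023, plus strand) encodes the side-chain cleavage enzyme, which opens steroid synthesis from cholesterol and is known in mast cells. It had 6063 in Runx2ko replicate 1, against 293 and 294 in Runx2ko replicates 2 and 3, 523, 636 and 280.1 in Runx2wt and 847, 806 and 657 in BM progenitor. The other libraries also held it, at 280.1 or more, and Runx2wt replicate 2 came close to the BM progenitor libraries without overlapping them. Alox5, which starts leukotriene synthesis, had 1174 in Runx2ko replicate 1, against 197 and 237 in Runx2ko replicates 2 and 3, 152, 191 and 174 in Runx2wt and 281, 247 and 269 in BM progenitor. All other libraries lay within a narrow band, with BM progenitor at its top. Of the 12 eicosanoid synthesis genes that reached 10 in a library, 3 were highest in Runx2ko replicate 1 (25.0%) and 3 lowest (25.0%). These were close to the shares over all genes that reached 10, 21.8% and 18.2%. One of the 3 lowest eicosanoid genes was Ptgs1, the cyclooxygenase that makes prostaglandin precursors, at 42.4 in Runx2ko replicate 1 against 135 to 575 in the 8 others.

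Vesicle transport was represented by 6 members with a median of 419. Rab38, a small GTPase of lysosome-related organelles such as platelet dense granules, had 2665 in Runx2ko replicate 1, against 3.24 and 18.8 in Runx2ko replicates 2 and 3, 27.9, 16.7 and 14.3 in Runx2wt and 355, 333 and 382 in BM progenitor. BM progenitor was again far above the other 5 transformed libraries. Rab27b, which docks secretory granules in mast cells and platelets, had 640.3 in Runx2ko replicate 1, against 0.809 and 7.04 in Runx2ko replicates 2 and 3, 0, 5.97 and 4.77 in Runx2wt and 14.1, 18.6 and 4.59 in BM progenitor. The 8 other libraries were all under 20 and their groups overlapped. Rab37, known from mast cell granules, had 835 in Runx2ko replicate 1, 5.58 to 36.9 in the 5 transformed others and 58.7 to 66.3 in BM progenitor. Sytl1, a Rab27 effector, had 134 in Runx2ko replicate 1 and 1.84 to 27.0 in the others. Of 18 granule exocytosis genes that reached 10, 7 were highest in Runx2ko replicate 1 (38.9%, 2 of the 7 being members) and 4 lowest (22.2%). The shares over all genes that reached 10 were 21.8% and 18.2%.

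Surface receptors formed the largest role, with 17 members, and in 11 of these all BM progenitor libraries lay above the other 5 transformed libraries. The same order held for 52.6% of all 135 members, so it was not particular to the receptors. Where the highest of the 8 other libraries was at least 10, it held for 56.8% of members and 19.5% of all genes. F2r encodes PAR1, a receptor cleaved by thrombin. It had 5239 in Runx2ko replicate 1, against 237 and 175 in Runx2ko replicates 2 and 3, 19.1, 82.4 and 67.9 in Runx2wt and 415, 716 and 586 in BM progenitor. Among the other transformed libraries, both Runx2ko libraries lay above all 3 Runx2wt libraries. Adgrg1, the adhesion receptor GPR56, had 4771 in Runx2ko replicate 1, against 55.8 and 59.9 in Runx2ko replicates 2 and 3, 41.4, 27.5 and 27.4 in Runx2wt and 523, 580.3 and 519 in BM progenitor. Its BM progenitor values were close together and about an order of magnitude above the other transformed libraries. Itgb7, the integrin β7 chain with which mast cell progenitors enter the gut, had 1650.1 in Runx2ko replicate 1, against 27.5 and 7.04 in Runx2ko replicates 2 and 3, 17.5, 50.1 and 52.4 in Runx2wt and 396, 307 and 228 in BM progenitor. The other transformed libraries were all under 60.

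Receptors for cytokines followed. Csf2rb2 encodes a β chain that in mice serves IL-3 alone, and its value was 3286 in Runx2ko replicate 1, against 285 and 288 in Runx2ko replicates 2 and 3, 198, 253 and 249 in Runx2wt and 726, 795 and 821 in BM progenitor. Its neighbouring and similar paralog Csf2rb, the β chain shared by IL-3, IL-5 and GM-CSF, missed the thresholds at 6074 in Runx2ko replicate 1 against 1754 to 4263. Reads of these similar genes could be shared. Il18r1 and Il18rap encode the chains of the IL-18 receptor and lie 14.5 kb apart on chromosome 1. Il18r1 had 368 in Runx2ko replicate 1 and 0 to 2.43 in the 8 others. Il18rap had 799 in Runx2ko replicate 1, against 51.0 and 112 in Runx2ko replicates 2 and 3, 70.1, 74.0 and 57.2 in Runx2wt and 109, 137 and 152 in BM progenitor. Il18r1 was thus near 0 in all other libraries, whereas Il18rap was present in all. Of 22 cytokine receptor genes that reached 10, 10 were highest in Runx2ko replicate 1 (45.5%) and 7 lowest (31.8%), beside 21.8% and 18.2% of all genes. The 10 include 3 members and 1 gene left out by name. Csf1r, the macrophage growth factor receptor, was among the 7 lowest at 41.0 in Runx2ko replicate 1 against 375 to 1379 in the 8 others. Kit, the receptor for stem cell factor, was at 222 in Runx2ko replicate 1, inside the 172 to 474 of the others.

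The basophil and mast cell receptor Cd200r3 had 1357 in Runx2ko replicate 1, against 0 and 5.87 in Runx2ko replicates 2 and 3, 0, 3.58 and 26.2 in Runx2wt and 101, 83.7 and 109 in BM progenitor. Every BM progenitor library held it at a level above the other transformed libraries. Clec10a, a C-type lectin known from macrophages, had 798 in Runx2ko replicate 1, 23.8 to 88.1 in the 5 transformed others and 125 to 191 in BM progenitor. Havcr2, which encodes the inhibitory receptor TIM-3, had 265 in Runx2ko replicate 1 against 9.30 to 36.9 over the 8 others. The remaining receptors, among them the adenosine receptor Adora2a, the complement regulator Cd55 and the costimulatory receptor Tnfrsf9, had values of 123 (P2ry10) to 487 (Plxdc2).

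Of the secreted ligands, Angpt1, which activates the receptor Tie2 and is made by stem and progenitor cells, had 876 in Runx2ko replicate 1, against 0 and 15.3 in Runx2ko replicates 2 and 3, 4.78, 5.97 and 2.38 in Runx2wt and 187, 191 and 142 in BM progenitor. The BM progenitor libraries stood between Runx2ko replicate 1 and the rest. Fgf3, a fibroblast growth factor, had 461 in Runx2ko replicate 1, 0 and 0 in Runx2ko replicates 2 and 3, 0, 0 and 0 in Runx2wt and 20.4, 40.7 and 33.9 in BM progenitor. Ppbp, the precursor of platelet chemokines, had 179 in Runx2ko replicate 1 and 0 to 33.4 in the others, without order among groups. Lif, a cytokine of the IL-6 family that activated mast cells release, had 153 in Runx2ko replicate 1 against 0 to 24.4 in the 8 others.

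Transcription regulators numbered 13. Tal1, a helix-loop-helix partner of GATA factors in blood stem cells, erythroid cells, megakaryocytes and mast cells, had 701 in Runx2ko replicate 1, against 4.05 and 23.5 in Runx2ko replicates 2 and 3, 2.39, 2.39 and 39.3 in Runx2wt and 147, 151 and 141 in BM progenitor. BM progenitor was above the other transformed libraries without overlap. Ikzf2, the zinc finger factor Helios, had 1315 in Runx2ko replicate 1, against 12.9 and 17.6 in Runx2ko replicates 2 and 3, 5.58, 5.97 and 23.8 in Runx2wt and 204, 260.5 and 249.6 in BM progenitor, with the groups in the same order. Mecom, known as Evi1 and needed by blood stem cells, had 679 in Runx2ko replicate 1, against 5.66 and 1.17 in Runx2ko replicates 2 and 3, 0, 0 and 58.4 in Runx2wt and 3.93, 1.16 and 4.59 in BM progenitor. For Mecom a single Runx2wt library stood above the 7 libraries that held almost none. Mycn, a MYC family factor of stem and progenitor cells, had 259 in Runx2ko replicate 1, 0 to 1.19 in the other transformed cells and 7.07 to 27.9 in BM progenitor. Hes1, a repressor induced by Notch, had 216, 0 to 3.52 and 6.29 to 15.1 in the same 3 sets of libraries. For Mycn and Hes1 each BM progenitor library lay above the other transformed libraries. Nrip1, a nuclear receptor corepressor, had 835 in Runx2ko replicate 1, against 9.71 and 7.04 in Runx2ko replicates 2 and 3, 3.19, 7.16 and 1.19 in Runx2wt and 176, 184 and 208 in BM progenitor. Chd3, a helicase of the NuRD complex, had 925 in Runx2ko replicate 1, against 125 and 205 in Runx2ko replicates 2 and 3, 206, 171 and 148 in Runx2wt and 95.9, 119 and 66.1 in BM progenitor. All its BM progenitor values lay under those of the transformed libraries, the reverse of Nrip1.

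The cell cycle inhibitors Cdkn2a and Cdkn2b, encoding p16 with p19Arf and p15, lie 11.6 kb apart on chromosome 4. Cdkn2a had 1303 in Runx2ko replicate 1, against 14.6 and 14.1 in Runx2ko replicates 2 and 3, 25.5, 17.9 and 32.2 in Runx2wt and 0.786, 3.49 and 1.84 in BM progenitor. Its BM progenitor values were the lowest of all and every other transformed library exceeded them. Cdkn2b had 172, from 126 counts, in Runx2ko replicate 1 and no count in any of the 8 others. Against a floor of 3 counts over those 8 together it was at least 473.6-fold higher. Bcl2, the survival protein, had 1390.1 in Runx2ko replicate 1, against 65.5 and 74.0 in Runx2ko replicates 2 and 3, 106, 80.0 and 164 in Runx2wt and 277, 299 and 301 in BM progenitor. BM progenitor again took second place. Perp, a p53-induced membrane protein of desmosomes, had 623 in Runx2ko replicate 1 and 0 to 27.5 in the others. No cell cycle gene of 22 was highest in Runx2ko replicate 1, beside 21.8% of all genes that reached 10. There 9 were lowest (40.9%), beside 18.2%. The list summed to 8097 in Runx2ko replicate 1, 7160 to 14114 in Runx2ko replicates 2 and 3 and 11394 to 18519 in Runx2wt. In BM progenitor it summed to 24628 to 26666. Another Runx2ko library thus summed lower, and a link to the inhibitors was not tested.

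A group of 7 members encodes proteins of epithelial junctions and adhesion. Epcam, the epithelial adhesion molecule, had 254 in Runx2ko replicate 1 and 0 to 4.59 in the 8 others. F11r, the junctional adhesion molecule JAM-A found on platelets and leukocytes too, had 301 in Runx2ko replicate 1 against 3.58 to 34.9 in the 8 others. Tjp1 and Marveld2, which encode the tight junction proteins ZO-1 and tricellulin, had 133 and 119 in Runx2ko replicate 1 against at most 10.5 and 13.4 in the 8 others. Podxl, a sialomucin of blood progenitors and endothelium, had 516 in Runx2ko replicate 1, 0 to 3.58 in the other transformed cells and 14.1 to 36.7 in BM progenitor. In 5 of the 7, all BM progenitor libraries exceeded the other transformed ones, beside 52.6% of all 135 members. Among genes reaching 10 in the 8, this held for 56.8% of members and 19.5% of all genes.

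Among globins only Hbb-bt met the thresholds. It encodes an adult β globin and had 3278 in Runx2ko replicate 1, against 16.2 and 30.5 in Runx2ko replicates 2 and 3, 0.797, 45.4 and 85.8 in Runx2wt and 92.0, 66.3 and 97.3 in BM progenitor. Runx2wt and BM progenitor overlapped, and all 8 libraries were under 100. The near-identical Hbb-bs did not follow, at 71.1 in Runx2ko replicate 1 against 7.17 to 109.8 in the 8 others, and Hba-a1, an α globin, had 93.0 in Runx2ko replicate 1 against 3.19 to 56.0 in the 8 others. Reads of the β globin copies could be divided by the authors' counting, so the value of each is uncertain.

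Signalling kinases and small GTPase regulators made up 9 members, from Rapgef3 at 156 to Pik3ip1 at 564. In 2 of these BM progenitor exceeded the other transformed libraries without overlap, beside 52.6% of all 135 members. Among genes reaching 10 in the 8, this held for 56.8% of members and 19.5% of all genes. The 65 members without an assigned role ran from 101.3 to 2619 with a median of 238. The highest were Rnf128, the ubiquitin ligase GRAIL, at 2619 in Runx2ko replicate 1 against 177 to 415 in the 8 others, then Gcnt1, which builds branched O-glycans, at 2155 in Runx2ko replicate 1 against 113 to 500.0 in the 8 others, and Aqp9, a channel for water and glycerol, at 1750.0 in Runx2ko replicate 1 against 7.17 to 161 in the 8 others. The largest ratio in this set was that of Fam20a, a pseudokinase of the secretory pathway known from tooth enamel, at 1126 in Runx2ko replicate 1 and 0 to 7.15 in the others. Hgfac, a protease that activates hepatocyte growth factor, had 387 in Runx2ko replicate 1 against 0 to 5.81 in the 8 others, and Epdr1, a secreted ependymin-related protein, had 428 in Runx2ko replicate 1 against 0 to 9.18 in the 8 others.

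**Figure D3:**
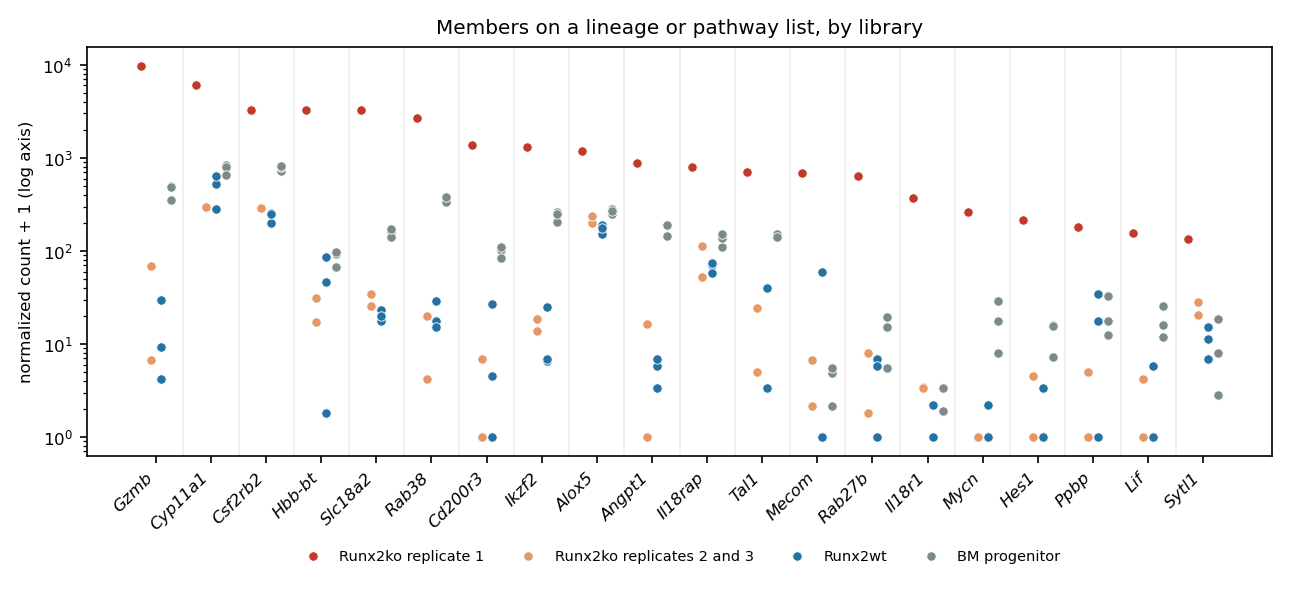
Normalized count plus 1 (log axis) in each of the 9 libraries for the 20 members that are on a lineage or pathway list. Runx2ko replicate 1 is the top point for each gene, and Cyp11a1 and Alox5 differ from Il18r1, Mycn and Rab27b in that the 8 other libraries hold them well above 0.

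The genes left out by name, all known from mast cells or related lineages, did not all share the pattern. Cpa3, the mast cell carboxypeptidase, had 8468 in Runx2ko replicate 1, against 46.9 and 758 in Runx2ko replicates 2 and 3, 44.6, 256 and 484 in Runx2wt and 406, 276 and 301 in BM progenitor. Fcer1a, the IgE-binding chain of FcεRI, had 1408 in Runx2ko replicate 1, against 1.62 and 79.8 in Runx2ko replicates 2 and 3, 3.19, 16.7 and 11.9 in Runx2wt and 82.5, 84.9 and 77.1 in BM progenitor. Gata2 and Itga2b (the platelet and progenitor integrin CD41) met the thresholds as well, at 2399 and 2912 in Runx2ko replicate 1 against at most 573 and 202 elsewhere. Mcpt8, the defining basophil protease, did not, with 1297 in Runx2ko replicate 1, against 18.6 and 37.6 in Runx2ko replicates 2 and 3, 33.5, 14.3 and 7.15 in Runx2wt and 1776, 1486 and 1709 in BM progenitor. Its BM progenitor values were all above Runx2ko replicate 1, as were those of Prss34, another basophil protease, at 727 in Runx2ko replicate 1 against 759 to 1004 in BM progenitor, and of Hdc, which makes histamine, at 549 in Runx2ko replicate 1 against 967 to 1069 in BM progenitor. The mast cell proteases were mixed. The chymase Cma1 had 416 in Runx2ko replicate 1, against 29.9 and 553 in Runx2ko replicates 2 and 3, 14.3, 169.5 and 473 in Runx2wt and 0.786, 1.16 and 1.84 in BM progenitor. Runx2ko replicate 3 and Runx2wt replicate 3 thus held more Cma1 than Runx2ko replicate 1. The tryptase Tpsb2 had 859 in Runx2ko replicate 1, against 23.5 and 355 in Runx2ko replicates 2 and 3, 7.97, 107 and 268 in Runx2wt and 0, 0 and 0 in BM progenitor. Ms4a2, the β chain of FcεRI, had 359.8 in Runx2ko replicate 1 against 3.98 to 58.7 in the other transformed cells and 291 to 330.1 in BM progenitor.

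Over whole lineage lists, Runx2ko replicate 1 was the highest of the 9 libraries for 15 of 21 mast cell genes that reached 10 in a library, 8 of 13 basophil genes and 9 of 12 stem and progenitor genes. The background was 21.8% of the 12811 genes that reached 10. As shares these were 71.4%, 61.5% and 75.0%. Members and genes left out by name were known to be high here, and without them 6 mast cell, 3 basophil and 6 stem and progenitor genes remained among the highest. The 6 mast cell genes included Ndst2, which sulfates heparin in mast cells, at 973 in Runx2ko replicate 1 against 139 to 272 in the 8 others. Of 14 proteoglycan and heparin synthesis genes, 5 were highest there (35.7%) and 4 lowest (28.6%). Of 20 IgE receptor signalling genes, 6 were highest (30.0%, 2 of them left out by name) and 5 lowest (25.0%). All genes that reached 10 stood at 21.8% and 18.2%. The mast cell list summed to 26557 in Runx2ko replicate 1, 952 to 3270 in the 5 transformed others and 4070 to 4348 in BM progenitor. Of the list, Mcpt2 had no count in Runx2ko replicate 1, Mcpt4, Mcpt1, Cma2 and Mrgprb1 stayed under 10 in every library, and Mitf, a transcription factor that mast cells need, was the lowest of 9 at 15.1 in Runx2ko replicate 1 against 67.2 to 145 in the 8 others. The basophil list summed to 24641 in Runx2ko replicate 1, 5068 to 10028 in the other transformed cells and 8355 to 9332 in BM progenitor. Both sums include members and genes left out by name, so they partly restate the choice of genes and are no support. Cpa3 and Gata2, at 8468 and 2399 in Runx2ko replicate 1, stand on both lists. The member Cyp11a1, at 6063 there, stands on the mast cell list.

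Megakaryocytes and erythroid cells share GATA factors with mast cells. Runx2ko replicate 1 was highest for 7 of 12 megakaryocyte genes (58.3%), a share close to that of the basophil list, and for 5 of 11 erythroid genes (45.5%). Without members and genes left out by name, 4 and 2 of these remained. Gata1, the erythroid, megakaryocyte and mast cell factor, had 149 in Runx2ko replicate 1, 0 to 1.62 in the other transformed cells and 30.7 to 50.5 in BM progenitor. Klf1, the erythroid master factor, had 8.21 in Runx2ko replicate 1 and 0 to 4.78 elsewhere, and 7 of 18 erythroid genes in the table, among them the membrane protein Slc4a1, stayed under 10 in every library. None of 9 eosinophil genes, 15 dendritic cell and MHC class II genes or 22 cell cycle genes was highest in Runx2ko replicate 1. On the list of NK cell genes, 2 of 5 were highest (40%, 1 of them the member Gzmb) and 2 lowest (40%), beside 21.8% and 18.2% of all genes. Gzma, Klrd1 and Tbx21 stayed under 10 in every library. Fibroblast and stroma genes summed to 94.4 in Runx2ko replicate 1, 74.1 to 241 in the other transformed cells and 139 to 238 in BM progenitor. By these counts no single lineage was set apart. With members and genes left out by name included, the stem and progenitor, mast cell, basophil and megakaryocyte lists each had 58.3% or more highest in the library. Without those genes 6, 6, 3 and 4 genes remained highest, in that order. Shares of the reduced lists were not worked out, so the shares given are a description and no support. The library did not carry Mitf or the basophil proteases at a level above BM progenitor.

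**Figure D4:**
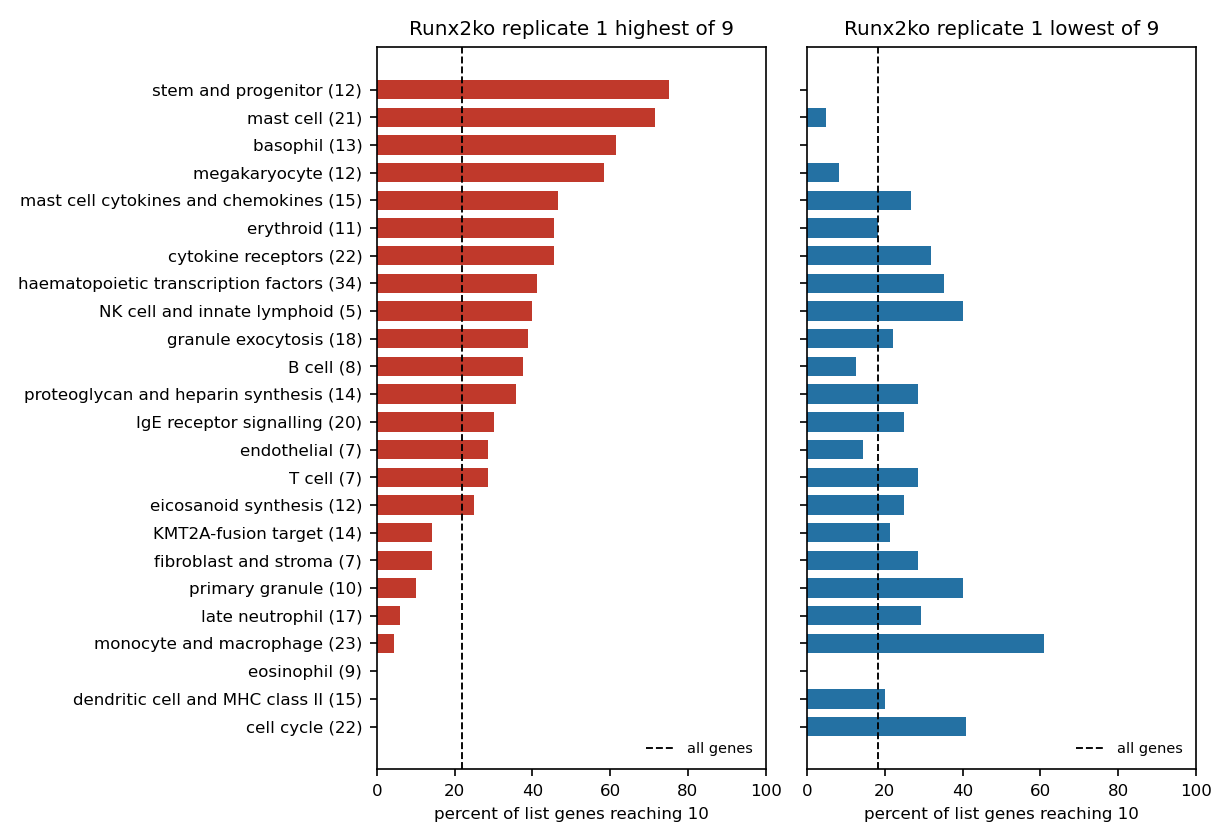
Bars give the percent of each list's genes, among those reaching 10 in a library (number in brackets), for which Runx2ko replicate 1 was the highest (left) or the lowest (right) of 9 libraries. Dashed lines mark all genes, at 21.8% and 18.2%, and the stem and progenitor list stands at 75.0% and the mast cell list at 71.4% highest while the monocyte and macrophage list stands at 60.9% lowest. The bars include members and genes left out by name.

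Monocyte and macrophage genes lay the other way in the same library. It was the lowest of 9 for 14 of 23 of them, beside 18.2% of all genes that reached 10, and the highest for 1. The list summed to 3328 in Runx2ko replicate 1, 25230 to 61039 in the other transformed cells and 21102 to 29834 in BM progenitor. By the mirrored rule the 5 most abundant of the 84 low genes were Lyz2, Psap, Ly6c2, Prtn3 and Gda. Lyz2, the lysozyme of macrophages and granulocytes, had 1074 in Runx2ko replicate 1, against 14530.2 and 29984 in Runx2ko replicates 2 and 3, 15855, 22282 and 45956 in Runx2wt and 16372, 11655 and 15322 in BM progenitor. Ly6c2, a monocyte surface protein, had 843 in Runx2ko replicate 1 against 4526 to 15388 in the 8 others, and Prtn3, a primary granule protease, had 114 in Runx2ko replicate 1 against 1658 to 5922 in the 8 others. The part of these genes in the values of the 135 members was not tested.

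The 8 other libraries set the ceiling of the rule, which used their highest value but not the order among them. Of the 118 members whose highest of the 8 reached 10, BM progenitor held that highest value for 89 (75.4%), beside 39.7% of all 12507 genes that reached 10 there. In 67 of the 118 (56.8%) every BM progenitor library lay above every other transformed library, beside 19.5% of those 12507 genes. These shares are a description. Raw counts of the 8 libraries were then tested with edgeR's quasi-likelihood test, with Benjamini-Hochberg adjustment over all 11636 genes that passed the low count filter. Of the 135 members, 25 did not pass that filter and 40 passed it only through the BM progenitor libraries, so that those 40 had to be lower in Runx2wt or not pass, and no count over the tested members is offered as support.

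In Runx2wt against BM progenitor, 56 of 110 tested members were lower, beside 12.1% of all genes, and 2 were higher, beside 15.9% (28.0% in either direction). Among the 70 members that passed the filter through transformed libraries as well, 25 were lower and 2 higher. Adgrg1 averaged 32.1 ± 8.1 in Runx2wt and 541 ± 34.0 in BM progenitor (SD, n = 3 each), which is -4.03 as a log2 fold change (SE 0.21, edgeR adjusted p = 6.31e-07). For Slc18a2 the log2 fold change was -2.98 (SE 0.27, edgeR adjusted p = 3.02e-05). Csf2rb2 had -1.73 (SE 0.16, edgeR adjusted p = 3.13e-05) and Rab38 had -4.12 (SE 0.38, edgeR adjusted p = 3.57e-05). In each of these 4 genes, which passed the filter through transformed libraries too, every BM progenitor library exceeded every Runx2wt library. Cdkn2a was higher in Runx2wt, by 3.65 (SE 0.63, edgeR adjusted p = 0.00179), and so was Chd3, by 0.92 (SE 0.26, edgeR adjusted p = 0.0232). Chd3 lost its call without 1 library in 4 of 6 cases (BM progenitor replicates 1 and 3, Runx2wt replicates 1 and 2), with edgeR adjusted p of 0.0538 to 0.0982. With Runx2ko replicate 1 included in the fit no member passed, and the edgeR adjusted p of the 4 genes above was 0.100 to 0.221. Cyp11a1 did not pass (log2 fold change -0.67, SE 0.25, edgeR adjusted p = 0.0648).

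**Figure D5:**
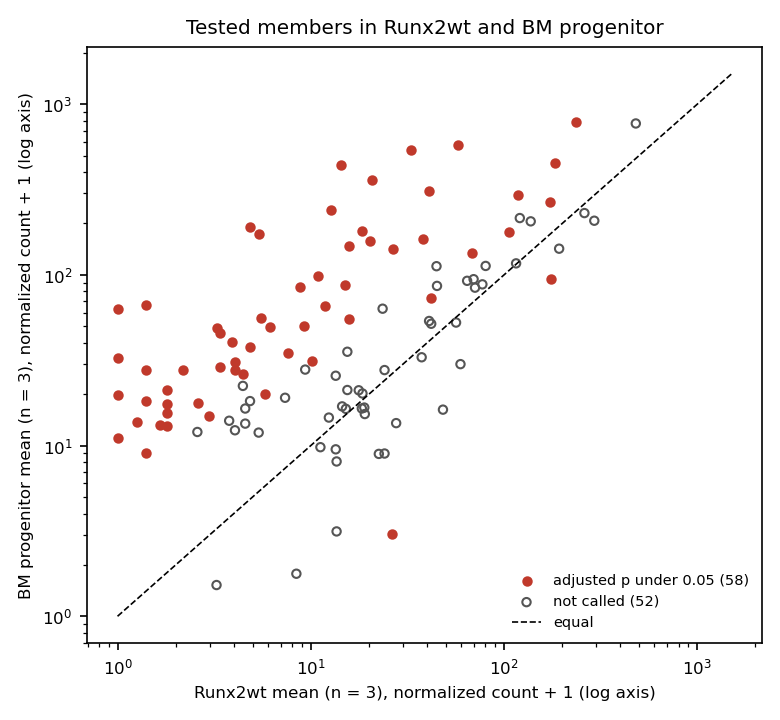
Each point is one of the 110 tested members, with its mean normalized count plus 1 in Runx2wt (n = 3) on the horizontal axis and in BM progenitor (n = 3) on the vertical axis, both on log axes. Filled points passed at an adjusted p under 0.05 (58 members) and most lie above the dashed line of equal means, while Cdkn2a and Chd3 lie below it. Of the 110, 40 passed the low count filter only through BM progenitor, so their side of the line is no support. Among the 70 others, 25 were called lower in Runx2wt and 2 higher.

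The rule itself kept the other Runx2ko libraries far below the first, so only their difference from Runx2wt could be tested. In Runx2ko replicates 2 and 3 against Runx2wt, edgeR called none of the 110 tested members, beside 0.043% of all genes (5 of 11636, 0.0172% higher and 0.0258% lower). At an unadjusted p under 0.05 there were 19 of 110 members (17.3%) beside 919 of 11636 genes (7.90%). The 110 include 40 members that passed the filter only through BM progenitor, which is outside this comparison. With only the compared libraries the share was 6 of 70 members (8.57%) beside 4.78% of genes. With a block for replicate number it was 12 of 110 (10.9%) beside 5.97%. Without each Runx2wt library in turn it ran from 14.2% to 20.5%, beside 7.21% to 8.97%. DESeq2 called 2 of 105 members (1.90%), both higher, beside 75 of 11712 genes (0.640%). This comparison uses the same Runx2wt libraries as the one above. The members that DESeq2 called were F2r and Xlr3a. F2r had 237 and 175 in Runx2ko replicates 2 and 3 and 19.1, 82.4 and 67.9 in Runx2wt, which is 1.91 as a log2 fold change (SE 0.44, edgeR adjusted p = 0.232). Xlr3a had 19.4 and 24.7 in Runx2ko replicates 2 and 3 and 0, 1.19 and 0 in Runx2wt, which is 5.55 as a log2 fold change (SE 0.98, edgeR adjusted p = 0.106). The log2 fold change of Gzmb was 1.45 (SE 0.86, edgeR adjusted p = 0.72), that of Slc18a2 0.57 (SE 0.31, edgeR adjusted p = 0.693) and that of Tal1 -0.12 (SE 0.99, edgeR adjusted p = 0.99). A p that misses the threshold does not show that the groups were alike.

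The members were spread over 20 chromosomes, with 13 each on chromosomes 1 and 4, and 11 pairs lay within 200 kb of each other. Besides Cdkn2a with Cdkn2b and Il18r1 with Il18rap, these included the sphingosine phosphate transporter Spns2 with its paralog Spns3 at 5.02 kb, the lymphocyte GTPase genes Gimap1 and Gimap5 at 2.40 kb, and Fbxo9 with Ick at 0.127 kb. Whether counting used strand is not stated, so overlapping or abutting genes may share reads.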

How the data were processed

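For 9 QuantSeq libraries the authors deposited a table of raw counts by Ensembl identifier and a table of normalized values. Dividing the tables showed that the normalized values were the deposited counts divided by 1 constant per library, within 4.96e-06. Per the submitters' processing notes, FastQC, STAR, DESeq2 and the build GRCm38 were used; the sources used here give no versions, counting program or strand setting. Symbols came from GENCODE M21 of the same build for 21042 of 21159 identifiers.

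Members and gene lists were chosen with earlier results of these data known. Named genes are members on a list, the 15 highest members, the 10 largest ratios, up to 5 passing each test per direction, the genes at the edge of the rule, the genes left out by name, Runx2, Hoxa9 and Meis1, up to 3 genes of a list a result turns on and the 5 most abundant low genes. Others, such as members given as examples of a role, were chosen after their values were seen.

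The test on 8 libraries, all but Runx2ko replicate 1, was that of edgeR 4.0.16 under R 4.3.3 (quasi-likelihood, TMM, filterByExpr, Benjamini-Hochberg adjusted p under 0.05), with the fit tested on simulated data. Alternatives were DESeq2 1.42.0, other size factors, filters and samples, a replicate block, other thresholds and leaving out each library. Depth was 3118594 to 5348177 counts, so low values carry counting error. Each p-value sets a difference between groups against the spread between these samples. Promoter windows came from RefSeq. Some genes that the rule names are not reported here.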

Additional observations from a re-analysis of the deposited data

How the results depend on the processing

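The number of members stayed within 1.5 times of 135 under 5 of 6 changes of threshold or scaling and without each other library in turn (136 to 140). It was 65 when 8 times the highest other library was required. Chosen after seeing the data, a ceiling from the 5 other transformed libraries alone gave 203 and a ceiling from the 3 BM progenitor libraries alone gave 259.

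For Runx2wt against BM progenitor, 1849 genes were higher and 1407 lower. With all 9 libraries in the fit these counts were 927 and 586, and without each library in turn they ran from 1136 to 1737 and from 798 to 1316. Members higher were 2, but 7 without the low count filter, 0 with all 9 libraries and 1 to 2 without each library in turn. Members lower were 56, but 0 with all 9 libraries, where 19 of 106 (17.9%) had an unadjusted p under 0.05 beside 31.8% of all genes, and 39 to 59 without each library in turn. That fit adds the library that chose the members to the estimate of spread.

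For Runx2ko replicates 2 and 3 against Runx2wt, 2 genes were higher and 3 lower. These counts were 44 and 31 with DESeq2, 166 and 126 without the low count filter, 0 and 0 with all 9 libraries (886 at an unadjusted p under 0.05), and 1 and 1 with only the compared libraries. Without each library in turn they ran from 4 to 18 and from 2 to 10. Members higher were 0, but 2 with DESeq2 and 5 without the low count filter. The cause was not tested.

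Libraries with the same replicate number showed little shared deviation from their group means (r of -0.0787 to 0.0802 across genes). The 2 Runx2ko libraries in this check deviate from their mean as mirror images, so their r values cannot show pairing. Between Runx2wt and BM progenitor libraries of the same number, r was 0.0211 to 0.0575. Low values do not exclude a shared origin, so whether the number pairs libraries is not settled. With the replicate block, 1611 genes were higher and 1248 lower in Runx2wt against BM progenitor, with 2 and 56 members, and 1 and 1 genes in the other comparison. Single values under the alternatives were tallied for a part of the members only. Of these, 561 kept their direction and side of the threshold, 45 lost a call, 12 gained one and none reversed. With all 9 libraries in the fit, 33 of them kept it and 22 lost a call. Over all tested members, the 58 calls in Runx2wt against BM progenitor fell to 0 in that fit. Runx2ko replicate 1 is 1 library, so no value that rests on it has a replicate check, and ratios to libraries near 0 rest on few counts.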

Other observations

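On the list of haematopoietic transcription factors, Runx2ko replicate 1 was the highest of 9 libraries for 14 of 34 genes that reached 10 (41.2%) and the lowest for 12 (35.3%). The shares over all genes were 21.8% and 18.2%, and the 14 include 3 members and 3 genes left out by name. The genes named here were chosen after their values were seen. Id2, an inhibitor of helix-loop-helix factors, had 1868 in Runx2ko replicate 1, against 194 and 387 in Runx2ko replicates 2 and 3, 265, 242 and 437 in Runx2wt and 619, 867 and 759.7 in BM progenitor. Zfpm1, the GATA partner FOG1, had 130.0 in Runx2ko replicate 1 and 7.28 to 57.0 in the 8 others. The RUNX paralogs of Runx2 lay opposite to it, with Runx1 at 740.2 in Runx2ko replicate 1 against 202 to 629 and Runx3 at 1059 against 229 to 911 in the 8 others. Among the lowest were Spi1, the myeloid factor PU.1, at 572 against 1267 to 1645, Tfec, a relative of Mitf, at 49.3 against 642 to 1069.8, and Lmo2, a partner of Tal1, at 130.0 against 442 to 1934 in the 8 others.

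Targets of KMT2A fusions were divided within the library. Meis1 and the member Mecom were the 2 of 14 that were highest in Runx2ko replicate 1 (14.3%, beside 21.8% of all genes that reached 10). Eya1, which encodes a transcriptional coactivator, had 16.4 in Runx2ko replicate 1, against 445 and 742 in Runx2ko replicates 2 and 3, 875, 1225 and 371 in Runx2wt and 36.9, 40.7 and 37.6 in BM progenitor. Runx2ko replicate 1 was the lowest of the 9 libraries for Eya1, below BM progenitor too.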
